A study of Mus musculus with 4 samples.

Results

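Natural killer (NK) cells and type 1 innate lymphoid cells (ILC1) were examined in single-cell RNA-seq libraries of mouse liver, where they made up 380 of 28199 barcodes kept for analysis. A barcode was kept with at least 300 genes, at least 500 unique molecular identifiers (UMIs, each standing for 1 captured RNA molecule) and at most 30% mitochondrial UMIs. Members were kept barcodes with at least 2 UMIs of Ncr1 plus Klrb1c. Ncr1 encodes the activating receptor NKp46 and Klrb1c encodes NK1.1, the surface molecules by which these cells are usually sorted in C57BL/6 mice. Members also had no UMI of Cd3d, Cd3e and Cd3g (the CD3 chains of T cells), Cd79a (B cells), C1qa (macrophages) or Siglech (plasmacytoid dendritic cells). The levels of these 8 genes chose the members, so they are given as a description and were not tested.

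The study followed livers of C57BL/6 mice through diet feeding to hepatocellular carcinoma (HCC). Each of its 4 groups was 1 library. The control library came from control diet, the low-AFP library from CD-HFD feeding and a low level of AFP (alpha-fetoprotein, a fetal liver protein that liver tumours often make), and the high-AFP library from a liver of high AFP. The title of the high-AFP library says control diet while its file is named for CD-HFD, so its diet is uncertain here and it is called by its AFP label. The HCC library was a cell suspension from the tumour region. Titles give 15 months and the age field gives 17 months for all 4 libraries, and no genetic alteration is labelled. The protocol, worded alike for all 4, describes collagenase perfusion, a hepatocyte fraction cleaned on Percoll, a live-sorted non-hepatocyte fraction, and a mixture of both in equal parts, so shares of barcodes do not measure shares of cells in the liver. Whether a library held 1 animal or a pool is not stated. With 1 library per group, no difference between libraries has a replicate check, and intervals given for them cover counting error only. Runs of 4 values stand for control first, then low-AFP, then high-AFP, with HCC last.

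NK cells and ILC1 share NKp46, NK1.1 and the transcription factor T-bet, and both make interferon gamma. NK cells circulate, depend on the transcription factor Eomes, carry Ly49 receptors for MHC class I and kill through perforin and granzymes. ILC1 stay in the tissue, where the liver is one of their main sites, and are usually recognised by the integrin CD49a (Itga1), CD200R1, TRAIL (Tnfsf10), CXCR6 and the interleukin 7 receptor.

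Promoter sequences of 5 genes on which the results turn are shown for reference: Ncr1, which defined the cells, Gzma and the Ly49 genes Klra8 and Klra4, which were high on the NK side, and Cxcr6, which was high on the ILC1 side. They are RefSeq sequences of GRCm38.p6, running from 250 bases before to 50 bases after the first listed transcription start, 5′ to 3′ on the gene's strand. Capitals mark the letters ACCACA or its reverse complement TGTGGT (a core sequence bound by RUNX factors) and TCACAC or its reverse complement GTGTGA (a T-box site, the kind bound by T-bet and Eomes). No capitals overlapped between the 2 motifs.
Ncr1 (chr7:4337465-4337764, plus strand): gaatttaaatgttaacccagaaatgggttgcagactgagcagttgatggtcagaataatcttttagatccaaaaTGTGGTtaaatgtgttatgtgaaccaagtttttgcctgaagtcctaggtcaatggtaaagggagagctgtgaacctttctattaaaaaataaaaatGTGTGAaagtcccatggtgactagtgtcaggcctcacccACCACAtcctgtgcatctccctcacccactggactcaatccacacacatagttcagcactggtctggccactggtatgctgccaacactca
Gzma (chr13:113100932-113101231, minus strand): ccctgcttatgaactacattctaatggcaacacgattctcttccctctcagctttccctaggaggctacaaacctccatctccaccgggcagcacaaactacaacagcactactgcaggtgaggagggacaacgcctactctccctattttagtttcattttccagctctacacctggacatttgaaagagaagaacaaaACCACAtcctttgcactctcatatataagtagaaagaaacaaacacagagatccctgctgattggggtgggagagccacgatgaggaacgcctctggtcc
Cxcr6 (chr9:123806227-123806526, plus strand): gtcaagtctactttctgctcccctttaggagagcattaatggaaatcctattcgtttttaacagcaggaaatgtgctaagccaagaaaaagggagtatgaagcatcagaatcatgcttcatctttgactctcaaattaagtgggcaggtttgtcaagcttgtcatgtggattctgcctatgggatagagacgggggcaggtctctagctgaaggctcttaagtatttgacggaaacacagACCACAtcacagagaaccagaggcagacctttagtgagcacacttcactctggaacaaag
Klra8 (chr6:130129849-130130148, minus strand): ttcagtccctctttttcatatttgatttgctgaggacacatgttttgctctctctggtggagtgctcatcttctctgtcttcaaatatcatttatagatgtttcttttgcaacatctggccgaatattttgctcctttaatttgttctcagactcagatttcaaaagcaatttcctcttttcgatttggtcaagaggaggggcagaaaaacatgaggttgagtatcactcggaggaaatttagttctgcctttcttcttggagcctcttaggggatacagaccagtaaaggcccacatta
Klra4 (chr6:130067222-130067521, minus strand): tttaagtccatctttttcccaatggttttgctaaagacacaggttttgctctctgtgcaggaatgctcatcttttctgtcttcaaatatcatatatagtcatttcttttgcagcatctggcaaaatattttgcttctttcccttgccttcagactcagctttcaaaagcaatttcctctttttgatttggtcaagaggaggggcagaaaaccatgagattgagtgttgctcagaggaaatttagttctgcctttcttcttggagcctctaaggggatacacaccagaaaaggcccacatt
The Ncr1 window held 2 RUNX matches, at 176 and 41 bases before the start, and 1 T-box match at 80 bases before it. Gzma held 1 RUNX match at 50 bases before the start and Cxcr6 held 1 at 10 bases before it, whereas the windows of Klra8 and Klra4 held neither motif. Among 32817 promoter windows of the same length, 16.8% held the RUNX letters and 14.5% the T-box letters on either strand. The windows of Klra8 and Klra4 were 86.0% identical over 301 aligned positions, and genes of the Ly49 family are near copies of each other, so reads could be shared among them and single Ly49 values are uncertain.

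The gate gave 28, 52, 90 and 210 members. Ncr1 was found in 27, 51, 89 and 210 of them and Klrb1c in 26, 46, 75 and 177. Over all other kept barcodes Ncr1 was at 2.40, 1.97, 1.33 and 6.30 CPM (counts per 1000000 UMIs of nuclear genes), against 1039, 993, 791 and 940 CPM in members. Eomes, the third marker, had UMIs in 8, 5, 5 and 37 members, so most members of every library had none. No member barcode occurred in another library's member list, and pairs of libraries shared between 3 and 29 kept barcodes.

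Members also held UMIs of other cell types' markers, at levels that differed between the marker lists. Of 8 T cell markers that the gate did not use, 7 were at 0 in control members, and the summed level was 27.4, 21.1, 16.3 and 136 CPM. In the HCC library the sum was mostly Cd28, a T cell costimulatory receptor, at 119 CPM, while Trac, the T cell receptor alpha constant gene, was at 7.53 CPM. Tcrg-C4, a constant gene of the T cell receptor gamma chain, was higher, at 173, 199, 212 and 170 CPM. The 9 macrophage and monocyte markers summed to 264, 518, 712 and 1166 CPM, and 10 hepatocyte markers summed to 16210, 8208, 11710 and 1479 CPM in the same order. Macrophage and monocyte markers in HCC thus summed to more than Ncr1 itself. Of these 1394 HCC UMIs, 985 were Lyz2, and 394 of the Lyz2 UMIs lay in 1 ILC1-side cell. The sum also includes Ccr2, which was called higher in members than in gated T cells. Control members had no Lyz2 UMI. Hepatocyte transcripts stood highest in control members and lowest in HCC members, and their part in the differences between libraries was not tested.

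Cells near the gate's limit were few. Members with exactly 2 UMIs of Ncr1 plus Klrb1c numbered 2, 2, 7 and 17, and barcodes with exactly 1 such UMI and no CD3 numbered 4, 6, 10 and 19. Fcer1g, the signalling chain of several NK receptors, was at 3325, 2225, 2470 and 2252 CPM in the former and at 429, 369, 536 and 1417 CPM in the latter. A larger group lay outside the gate because of CD3: barcodes with at least 2 UMIs of Ncr1 plus Klrb1c and a CD3 UMI numbered 63, 12, 18 and 62. In the control library they were 69.2% of all NK-receptor barcodes counted in either class (exact 95% interval 58.7 to 78.5%), against 18.8% in low-AFP (10.1 to 30.5%), 16.7% in high-AFP (10.2 to 25.1%) and 22.8% in HCC (18.0 to 28.3%). Of the 63 control barcodes, 52 had a Trac UMI and 33 an Ncr1 UMI.

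As a share of leukocytes, members were fewest in control and most in HCC at the depth sequenced. Leukocytes were counted as barcodes with a UMI of Ptprc (CD45, the pan-leukocyte phosphatase), together with any member that lacked one. Of these, members were 1.75% for control (28 of 1598, exact 95% interval 1.17 to 2.52%) and 2.44% for low-AFP (52 of 2129, 1.83 to 3.19%). They were 2.88% for high-AFP (90 of 3123, 2.32 to 3.53%) and 3.37% for HCC (210 of 6234, 2.94 to 3.85%). After each barcode was thinned to 1000 UMIs the shares were 1.72% (0.967 to 2.83%), 1.92% (1.19 to 2.92%), 2.54% (1.81 to 3.46%) and 2.47% (2.001 to 3.002%). Control and HCC intervals were apart at full depth and overlapped after thinning, while median member depth was 4116.5, 5919.5, 4455.5 and 5679 UMIs. Relative to gated T cells the order was another: members were 7.74% of members plus T cells for control (5.20 to 10.99%), 11.8% for low-AFP (8.93 to 15.2%), 15.7% for high-AFP (12.8 to 18.9%), and 7.86% for HCC (6.86 to 8.94%). The HCC library held 2463 gated T cells, so its members were many by number and few relative to T cells.

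**Figure D1:**
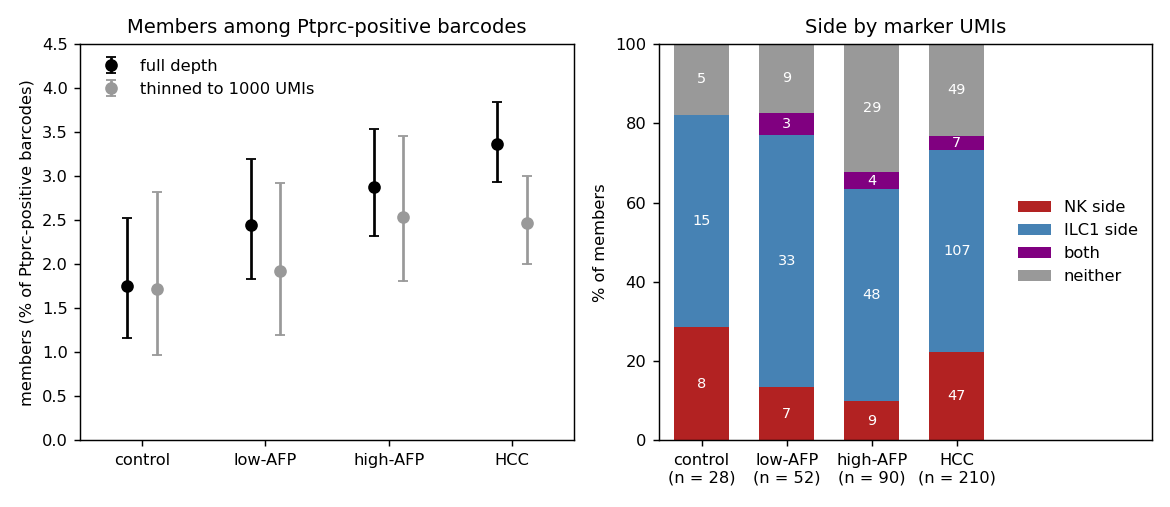
Left, members as a percent of Ptprc-positive barcodes in each library at full depth (black) and after thinning to 1000 UMIs (grey), with exact 95% binomial intervals for counting error. Members without a Ptprc UMI were counted among the Ptprc-positive barcodes. Right, percent of members on the NK side, the ILC1 side, both or neither, with cell counts in the bars; the ILC1 side was the largest class in all 4 libraries.

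Members were then split by 4 marker genes. The NK side had a UMI of Eomes or Itga2 (the integrin CD49b) and none of Itga1 or Cd200r1, and the ILC1 side the reverse. The NK side held 8, 7, 9 and 47 cells, and the ILC1 side held 15, 33, 48 and 107. A further 0, 3, 4 and 7 cells were positive on both sides and 5, 9, 29 and 49 on neither. Among members positive on 1 side alone, the NK side was 34.8% for control (16.4 to 57.3%), 17.5% for low-AFP (7.34 to 32.8%), 15.8% for high-AFP (7.48 to 27.9%), and 30.5% for HCC (23.4 to 38.4%). At 1000 UMIs per barcode few split cells remained, and the NK side was 3 of 9, 0 of 5, 2 of 9 and 14 of 32 of them.

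Single marker genes differed in how well they separated members from other cells. Itga1 had UMIs in 46.4, 55.8, 37.8 and 30.5% of members, and in 4.65, 1.44, 2.27 and 0.297% of gated B cells, which should lack it. B cells were shallower, with medians of 3174, 3294, 2660.5 and 3799 UMIs. At 1000 UMIs per barcode the Itga1 shares were 25, 11.5, 11.1 and 9.05% in members and 1.40, 0, 0.660 and 0% in B cells. Cd200r1 had UMIs in 42.9, 44.2, 40.0 and 42.9% of members and in at most 0.930% of B cells. Eomes was found in 28.6, 9.62, 5.56 and 17.6% of members and also in 8.38, 29.1, 33.6 and 56.2% of gated T cells, so a UMI of Eomes alone was not specific to members.

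The NK side and the ILC1 side differed in the genes that usually separate the 2 cell types. In the NK side the cytotoxic genes Gzma and Prf1, the Ly49 receptors and the transcription factors Klf2, Irf8 and Zeb2 were higher. In the ILC1 side Cxcr6, Gzmc, Tnfsf10, Il7r, Il21r and the transcription factors Tox, Ikzf2 and Ahr were higher. Of these, Tnfsf10, Il7r, Il21r, Tox, Ikzf2 and Ahr were called by edgeR and not by DESeq2. Gzmc had no call when Eomes against Itga1, or Itga2 against Cd200r1, alone split the sides. The comparison used UMIs summed per library and side, with the library as a block, and edgeR's quasi-likelihood test with Benjamini-Hochberg adjustment over 2166 genes, from which the genes of the gate and of the split were left out. It called 33 genes higher (1.52%) and 28 lower (1.29%) in the NK side, together 2.82% of the genes tested. Median depth per cell was 3289, 3780, 4083 and 5641 UMIs in the NK side and 4450, 6092, 4554.5 and 5796 in the ILC1 side. The smaller side held as few as 7 cells, and without the HCC library 15 genes were higher and 11 lower. Without the control library 47 were higher and 59 lower, without low-AFP 19 and 14, and without high-AFP 21 and 22.

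Ly49 receptors, which bind MHC class I and mostly inhibit NK cells, showed the largest folds. Klra8, which encodes Ly49H, the activating receptor that recognises a cytomegalovirus protein, was at 1363, 749, 471 and 476 CPM in the NK side and at 0, 0, 0 and 1.57 CPM in the ILC1 side. Every library's NK side was above every library's ILC1 side. Summed over libraries, 202 NK-side UMIs stood against 1 in the ILC1 side, a ratio of CPM of 667 with a 95% counting interval reaching down to 118. Klra4 (Ly49D) was at 1328, 944, 265 and 315 CPM against 0, 0, 0 and 10.96 CPM. Klra7 had 117 UMIs in the NK side and none in the ILC1 side, at least 129-fold higher against a floor of 3 counts over the ILC1 side. Of 12 Ly49 genes listed, 5 passed the count filter (Klra3, Klra4, Klra7, Klra8, Klra9). All 5 were called higher, with a median log2 fold of 6.16 beside -0.03 over all genes tested. Genes with almost no ILC1-side UMIs, such as Klra7 and Klra8, passed the filter through the NK side and could only be higher. The count and the median are therefore a description. Klra3 and Klra7 were not tested without the HCC library. Neither was called with Itga2 against Cd200r1 as the splitting genes, a run that lacked the control library. Klra4 or Klra8 had a UMI in 42 of 71 NK-side cells and in 2 of 203 ILC1-side cells.

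Of 20 NK cell genes listed, 13 were tested, of which 11 were higher in the NK side and none was lower, with a median log2 fold of 2.93. The 11 include the Ly49 genes above and Cma1, so some passed the count filter through the NK side alone. Gzma, a granzyme, was at 8701, 6544, 6332 and 6521 CPM in the NK side and at 236, 979, 98.1 and 407 CPM in the ILC1 side. The 2 sides did not overlap, and the log2 fold was 4.21 ± 0.35 (SE; edgeR adjusted p 1.73e-06). Prf1, which encodes perforin, was at 944, 488, 324 and 787 CPM against 157, 104, 81.8 and 108 CPM (log2 fold 2.54 ± 0.23 SE; edgeR adjusted p 3.65e-06). Klf2, a transcription factor of circulating lymphocytes, was at 769, 847, 560 and 1328 CPM against 63.0, 136, 57.2 and 168 CPM. Cma1, a mast cell protease that is also made by mouse NK cells, had 59 UMIs in the NK side and none in the ILC1 side, at least 64.9-fold higher. Without the HCC library Cma1 was not tested.

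Of the 15 ILC1 genes tested, 13 were lower in the NK side and none was higher, with a median log2 fold of -1.74. DESeq2 called 6 of these 13 (Cxcr6, Gzmc, Cd160, Ltb, Tmem176b and Xcl1), and edgeR called 6 without the low-AFP library, 6 without the block and 3 with Itga2 against Cd200r1 as the splitting genes. The run with Itga2 against Cd200r1 also left out the control library, which had 2 such NK-side cells. Without the HCC library 8 of the 13 passed the count filter and 5 were called. Cxcr6, the receptor that holds lymphocytes in the liver sinusoids, was at 850, 472, 429 and 394 CPM in the ILC1 side and at 0, 32.6, 147 and 38.4 CPM in the NK side. Its log2 fold, NK side over ILC1 side, was -3.25 ± 0.38 (SE; edgeR adjusted p 6.55e-05), with no overlap between the sides. Gzmc, a granzyme of activated and tissue-resident innate lymphocytes, was at 299, 1338, 981 and 265 CPM against 34.9, 0, 177 and 30.7 CPM. Tnfsf10, the death ligand TRAIL, was at 157, 150, 188 and 136 CPM against 0, 65.1, 0 and 42.2 CPM (log2 fold -2.03 ± 0.45 SE; edgeR adjusted p 0.01996). Tnfsf10 was not called by DESeq2 (adjusted p 0.129), nor by edgeR without high-AFP, without low-AFP or with Itga2 against Cd200r1. Il7r and Il21r lost their call under DESeq2 (adjusted p 0.403 and 0.181), without low-AFP and with Itga2 against Cd200r1, and Il7r also without the block. Tnfsf10, Il7r and Il21r were below the count filter without HCC. Gzmc had no call with Itga2 against Cd200r1 or with Eomes against Itga1. Il21r also had no call with Eomes against Itga1 and was not tested after removal of high Scrublet scores. Other genes called lower were Il7r, Il21r, Inpp4b, Ckb, Cd160, Ltb, Rgs1, Tmem176a, Tmem176b and Xcl1.

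The MHC class II genes H2-Ab1 and H2-Eb1 were also called lower in the NK side (log2 folds -2.18 ± 0.40 and -2.14 ± 0.37 SE; edgeR adjusted p 0.00587 and 0.00444). Neither was called without the block, and H2-Ab1 was not called by DESeq2. Both dropped out of the test without the HCC library and after removal of high Scrublet scores. Single ILC1-side cells held 122 of 236 H2-Ab1 UMIs and 111 of 207 H2-Eb1 UMIs of HCC members. In high-AFP, 1 ILC1-side cell held 90 of 156 H2-Ab1 UMIs. With Eomes alone against Itga1 alone the log2 folds were 0.10 and 0.24. That run held only the control and HCC libraries, because low-AFP and high-AFP had fewer than 5 NK-side cells. Marker choice and libraries thus changed together. B cell markers other than Cd79a summed to 245, 130, 29.5 and 184 CPM in the NK side and to 220, 190, 127 and 211 CPM in the ILC1 side. Macrophage and monocyte markers summed to 245, 97.7, 619 and 1105 CPM and to 283, 308, 605 and 1398 CPM, and the part of other cells' RNA in this result was not tested.

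The transcription factor list was split, with 3 of 15 genes tested higher in the NK side and 3 lower. Irf8 was at 594, 423, 265 and 695 CPM in the NK side and at 110, 81.6, 131 and 113 CPM in the ILC1 side (log2 fold 2.24 ± 0.26 SE; edgeR adjusted p 6.55e-05). Zeb2, a factor of terminal NK maturation, was at 419, 261, 147 and 257 CPM against 0, 72.5, 16.4 and 105 CPM. Tox, Ikzf2 (Helios) and Ahr were lower, with log2 folds of -1.26 ± 0.27, -1.89 ± 0.39 and -1.87 ± 0.38 (SE). DESeq2 called none of Tox, Ikzf2 and Ahr, and Tox, Ahr and Zeb2 were not called by edgeR without low-AFP. Irf8 and Klf2 were called in every alternative run. Tbx21 (T-bet), Gata3, Id2, Runx3 and Tcf7 were tested and not called.

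Granzymes and cytokines did not all follow 1 side. The cytotoxic list had Gzma, Prf1, Nkg7 and Serpinb9 higher and Gzmc and Tnfsf10 lower in the NK side, of 14 tested. Nkg7 and Serpinb9 were not called by DESeq2, nor without high-AFP or low-AFP. Gzmb, the most studied granzyme, was at 559, 391, 766 and 1079 CPM in the NK side and at 740, 1097, 1227 and 531 CPM in the ILC1 side, and was not called (log2 fold -0.17 ± 0.31 SE; edgeR adjusted p 0.942). Its sign differed between HCC and the other 3 libraries. Of 7 cytokines and chemokines tested, Ccl5 was higher in the NK side (log2 fold 0.53 ± 0.09 SE; not called by DESeq2 or without low-AFP), and Xcl1 and Ltb were lower, while Ifng, Ccl3 and Ccl4 were not called.

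Of 6 interferon response genes, 11 immediate early and dissociation genes, 3 cell cycle genes, 9 glycolysis genes and 10 hepatocyte markers tested between the sides, edgeR and DESeq2 each called 0. At an unadjusted p under 0.05 edgeR gave 1, 2, 2, 1 and 0 genes of these lists. The hepatocyte markers had a median log2 fold of 0.18. Of 12 other NK receptors tested, Klre1, Klri2 and Ly6c2 were higher in the NK side, none of them without low-AFP, and Klrc1, Klrc2, Klrb1a, Klrb1b and Klrb1f did not pass. Klrc2, for example, was at 524, 488, 471 and 537 CPM in the NK side and 504, 517, 425 and 570 CPM in the ILC1 side.

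**Figure D2:**
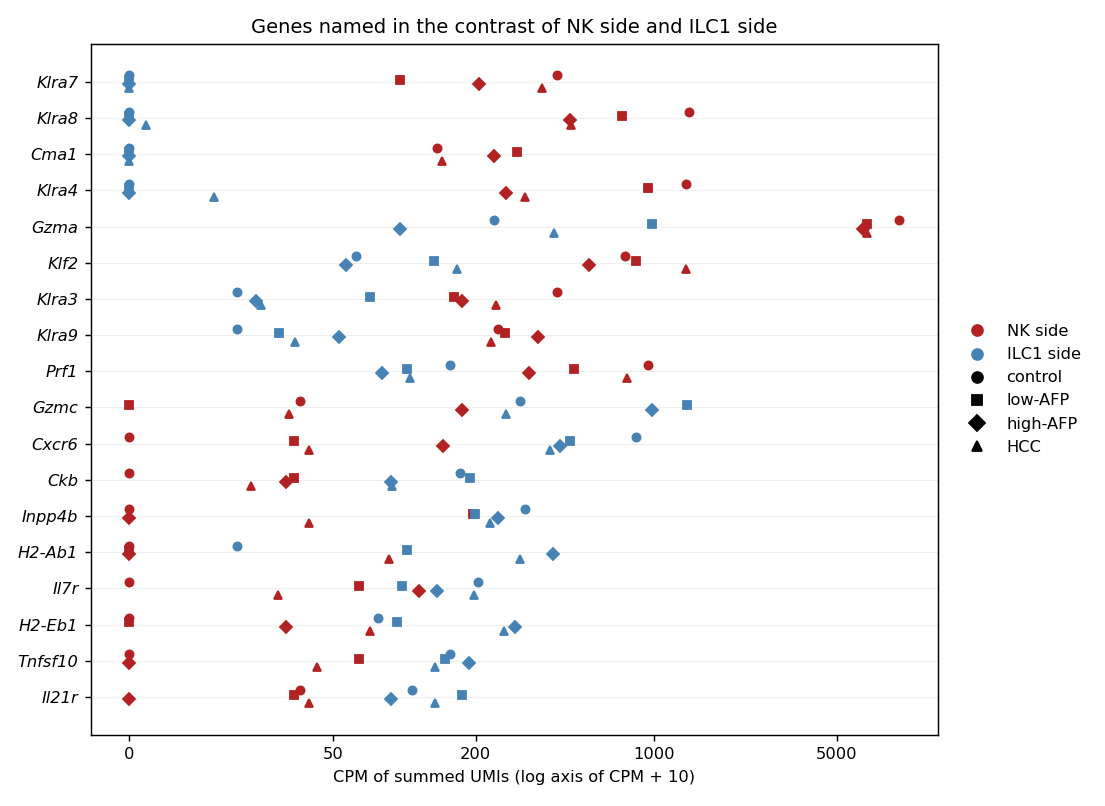
CPM of summed UMIs (log axis of CPM + 10) for the genes named in the contrast, in the NK side (red) and the ILC1 side (blue) of the 4 libraries (symbols; 1 sum per library and side). The genes from Klra7 to Prf1 were higher in the NK side of every library and those from Gzmc to Il21r were lower.

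Gzma and Cxcr6, neither of which entered the gate or the split, were found mostly in different cells. Of 380 members, 82 had at least 5 Gzma UMIs, 239 had a Cxcr6 UMI, 16 had both and 75 had neither. In the NK side 50 of 71 cells had at least 5 Gzma UMIs and 6 had a Cxcr6 UMI. In the ILC1 side 12 of 203 cells had at least 5 Gzma UMIs and 166 had a Cxcr6 UMI, and 10 of those 12 also had Cxcr6. By library, at least 5 Gzma UMIs were found in 8 of 8, 4 of 7, 6 of 9 and 32 of 47 NK-side cells. The same held for 1 of 15, 4 of 33, 1 of 48 and 6 of 107 ILC1-side cells.

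The 92 members without a UMI of any of the 4 splitting genes fell along the same lines. Of these, 14 had at least 5 Gzma UMIs and no Cxcr6, 51 had Cxcr6 and fewer than 5 Gzma UMIs, 5 had both and 22 had neither. Klra4 or Klra8 was found in 10 of the 92. The 14 cells positive on both sides looked more like the ILC1 side in these genes, with 11 having a Cxcr6 UMI and 1 having at least 5 Gzma UMIs. One both-side cell of the high-AFP library carried 431 UMIs of Spp1 (osteopontin), 67.7% of all Spp1 UMIs in that library's members.

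**Figure D3:**
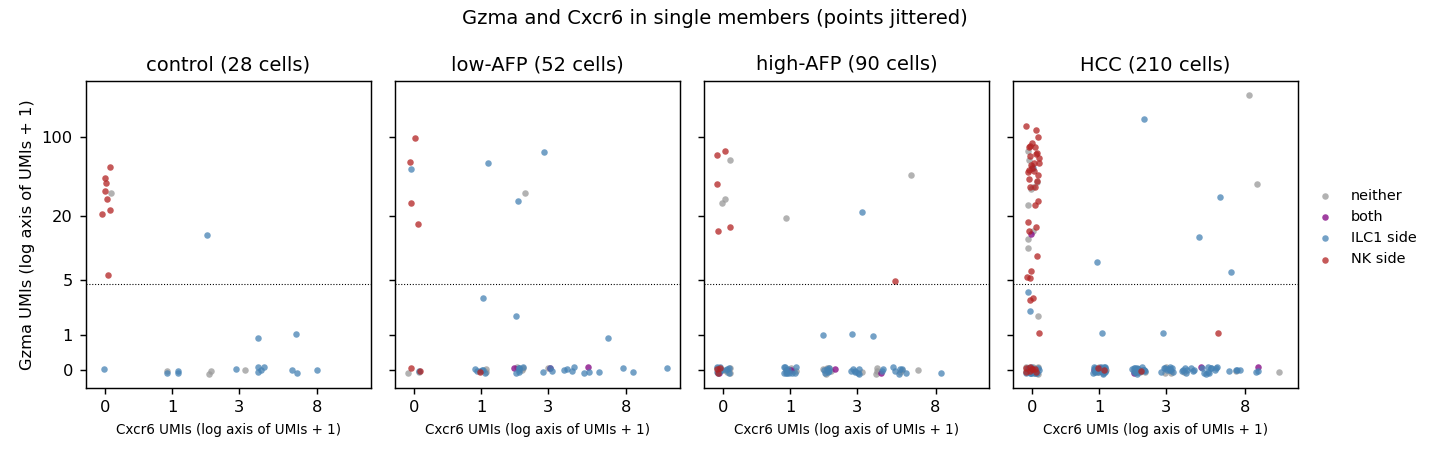
UMIs of Cxcr6 (x axis) and Gzma (y axis) in each member, on log axes of UMIs + 1, by library coloured by side and jittered; the dotted line separates cells with at least 5 Gzma UMIs. Cells above the line lie mostly at 0 Cxcr6 UMIs, and 16 of 380 members had both.

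Compared with gated T cells of the same libraries, members had more RNA of most NK receptors and of the adaptors Fcer1g and Tyrobp, and less of Trac and Trdc, the constant genes of the T cell receptor alpha and delta chains. Absence of CD3 UMIs was set by the gate. Tcrg-C4, a constant gene of the gamma chain, was higher in members, at 173, 199, 212 and 170 CPM against 44.9, 36.5, 32.7 and 63.3 CPM in T cells (log2 fold 2.00 ± 0.20 SE; edgeR adjusted p 6.7e-06). In the ILC1 side Tcrg-C4 was at 299, 172, 241 and 230 CPM. edgeR's quasi-likelihood test with the library as a block, over 9136 genes and without the genes of either gate, called 457 genes higher (5.0%) and 591 lower (6.47%) in members, together 11.5% of those tested. Both populations were gated on UMIs of a few genes, and T cells here were barcodes with at least 2 CD3 UMIs and none of Ncr1 and Klrb1c. Without the HCC library 257 were higher and 340 lower, and without the high-AFP library 263 and 364.

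Klrb1a and Klrb1b, C-type lectin receptors encoded beside Klrb1c, had the clearest differences among receptors. Members had to hold UMIs of Ncr1 or Klrb1c and T cells to hold none. How far this choice set the receptor differences was not tested. Klrb1a was at 255, 211, 209 and 212 CPM in members and at 1.98, 0.501, 0.897 and 0.154 CPM in T cells. Members of every library were far above T cells of every library, with a log2 fold of 8.70 ± 0.30 (SE; edgeR adjusted p 6.11e-11). Of 16 other NK receptors tested, 13 were higher in members and 2 were lower (Slamf6 and Ly6c2). Klrk1 (NKG2D) was at 1368, 951, 975 and 1491 CPM against 233, 142, 117 and 173 CPM, and Klrc1 (NKG2A) at 492, 370, 207 and 328 CPM against 25.1, 21.5, 16.6 and 74.7 CPM.

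Signalling genes went both ways, 5 higher and 6 lower in members of 16 tested. The adaptors Fcer1g and Tyrobp (DAP12), the kinase Syk, Sh2d1b1 and Plcg2 were higher in members. Zap70, Lat, Lck and Fyn, which carry T cell receptor signals, were lower, as were Sh2d1a, the adaptor of SLAM family receptors, and Cd247, the zeta chain used by the T cell receptor and by NK receptors such as NKp46. Fcer1g was at 2562, 2667, 2870 and 2442 CPM in members and at 159, 268, 279 and 243 CPM in T cells (log2 fold 3.44 ± 0.11 SE; edgeR adjusted p 3.09e-11). Cd247 was at 54.7, 30.1, 20.9 and 31.0 CPM against 98.9, 138, 135 and 150 CPM.

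Inhibitory checkpoint genes went both ways, 5 higher and 6 lower of 12 tested, of which DESeq2 called all but Cd96, Nt5e and Cish. Pdcd1 (PD-1) was at 0, 24.1, 60.5 and 19.2 CPM in members and at 21.8, 137, 107 and 216 CPM in T cells (log2 fold -2.45 ± 0.35 SE; edgeR adjusted p 0.000228). Ctla4, Lag3, Entpd1, Nt5e and Cish were lower as well. Klrc1, Cd160, Cd200r1, Cd96 and Pdcd1lg2 (PD-L2) were higher, among which Cd160 was at 520, 467, 444 and 397 CPM in members and 245, 86.6, 61.0 and 101 CPM in T cells.

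Effector genes of members differed from those of T cells in kind. Gzmc was at 182, 957, 1063 and 187 CPM in members and at 0.660, 1.00, 1.79 and 0.845 CPM in T cells (log2 fold 8.51 ± 0.23 SE; edgeR adjusted p 8.95e-12). Gzmk, a granzyme of memory CD8 T cells, was at 9.12, 0, 0 and 1.67 CPM in members and at 70.6, 282, 359 and 451 CPM in T cells. Xcl1, a chemokine that draws cross-presenting dendritic cells, was at 1887, 3672, 2349 and 2006 CPM against 482, 184, 114 and 153 CPM. Gzma, Gzmb, Prf1 and Tnfsf10 were called higher in members and Ccl5 lower (Prf1 not by DESeq2 or without low-AFP, high-AFP or HCC), while Ifng, Ccl3 and Ccl4 were not called. The interleukin 2 receptor beta chain Il2rb, shared by the receptors of interleukins 2 and 15, was at 1359, 1129, 1140 and 954 CPM in members and 526, 347, 354 and 362 CPM in T cells.

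Among the T cell genes lower in members were Cd8a, Cd8b1, Cd5, Cd6, Themis, Tnfrsf4, Tcrg-C2 and Izumo1r. Izumo1r (folate receptor 4, a marker of regulatory T cells) had no UMI in members of any library and 54.7, 78.1, 52.5 and 49.9 CPM in T cells. All 8 T cell markers tested were lower, in populations that the CD3 genes themselves had separated. Of 20 interferon response genes, 8 were lower in members and none was higher (5 lower by DESeq2, 4 without high-AFP and 2 without the block). All 10 hepatocyte markers were lower in members too (6 by DESeq2 and 0 without the block), and their part in the other differences was not tested. Klra4, Klra8, Klri2, Styk1, Nrgn, Emid1 and Adamts14 were the other named genes higher in members.

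**Figure D4:**
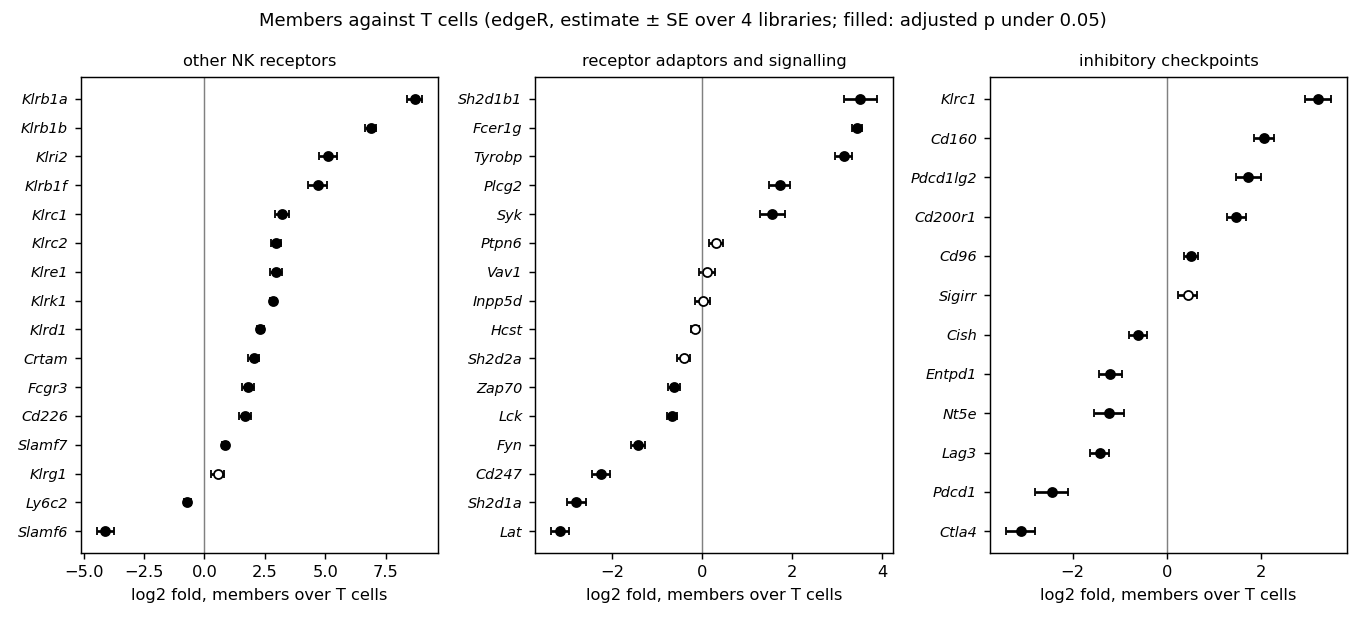
Log2 fold of members over gated T cells for the tested genes of 3 lists, as edgeR estimates with SE over 4 libraries; filled points had an adjusted p under 0.05. Receptors lie mostly to the right of 0, while adaptors and checkpoints lie on both sides.

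Across 24 sums of cells (6 gated populations in each of 4 libraries), the genes whose level was most like that of Ncr1 were Klrb1a (Pearson r 0.99), Klrb1b (0.99), Klrb1f (0.96), Clnk (0.95) and Klrc1 (0.94), among 2070 genes ranked. The 6 populations of a library share its depth and free RNA, and members were chosen by Ncr1, so these correlations are a description.

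Between libraries, member levels were compared as CPM of summed UMIs with exact 95% Poisson intervals, and a gene counted as changed at 2-fold on CPM + 10 among genes reaching 50 CPM in either library. Relative to control, low-AFP members had 222 of 3825 genes higher (5.8%) and 343 lower (8.97%), together 14.8%. High-AFP had 175 of 3794 higher (4.61%) and 299 lower (7.88%), together 12.5%, and HCC had 174 of 3737 higher (4.66%) and 361 lower (9.66%), together 14.3%. HCC against high-AFP gave 74 of 3372 higher (2.19%) and 184 lower (5.46%), together 7.65%. Where intervals also had to lie apart, the comparison of low-AFP with control kept 1.88% higher and 2.41% lower (4.29%). That of high-AFP kept 1.58% and 1.79% (3.37%), that of HCC 1.69% and 5.75% (7.44%), and HCC against high-AFP 2.19% and 5.46% (7.65%). The 3 comparisons with control share the same 28 control cells and 109672 control UMIs. TMM scaling, which allows for a few genes taking much of a library, moved the median log2 fold by 0.18, 0.19, 0.30 and 0.12, and then gave 309 higher and 169 lower genes for low-AFP, 255 and 137 for high-AFP, 372 and 180 for HCC, and 130 and 167 for HCC against high-AFP. All 10 hepatocyte markers were lower in HCC than in control and in high-AFP.

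Cell cycle genes were higher in the members of low-AFP and high-AFP than in those of control. Of 16 measured, 14 were 2-fold higher in low-AFP and none was lower, beside 5.8% of all genes measured that were higher. Of 14 measured in high-AFP, 8 were higher and none was lower, beside 4.61%. Intervals were apart for 12 and 6 genes, and for 9 and 3 without each gene's top cell. Control members had no UMI of Mki67, Birc5 or Rrm2. Such genes reached 50 CPM only through the other library and could only be higher, so these counts are a description. The median log2 folds were 2.99 and 1.17, beside -0.12 over all genes measured in each comparison, and 3.08 and 1.30 with TMM scaling. Stmn1, a microtubule regulator of dividing cells, was at 18.2 CPM for control (2.21 to 65.9), 650 for low-AFP (566 to 743), 365 for high-AFP (310 to 427), and 82.0 for HCC (66.6 to 99.9). Mki67, which encodes the proliferation antigen Ki-67, was at 0, 265, 58.2 and 36.0 CPM, at least 9.68-fold higher in low-AFP than in control against a floor of 3 counts.

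Few cells carried these UMIs. Mki67 or Top2a had a UMI in 1 of 28 control members (3.57%, exact 95% interval 0.0904 to 18.4%), 7 of 52 in low-AFP (13.5%, 5.59 to 25.8%), 9 of 90 in high-AFP (10.0%, 4.68 to 18.1%) and 15 of 210 in HCC (7.14%, 4.05 to 11.5%). At 1000 UMIs per barcode the cells were 0, 4, 5 and 5 (0, 7.69, 5.56 and 2.38%), and in gated B cells the full-depth shares were 5.12, 4.32, 1.95 and 4.31%. Gated T cells stood at 12.87, 13.62, 15.05 and 20.71% at full depth and at 6.325, 4.922, 6.418 and 6.716% after thinning. Members were thus not above T cells at full depth in any library. The CPM differences rested on up to 8 cells with Stmn1 UMIs in low-AFP and 13 in high-AFP. By side, these UMIs were found in 0 of 8, 0 of 7, 1 of 9 and 4 of 47 NK-side cells and in 1 of 15, 4 of 33, 7 of 48 and 8 of 107 ILC1-side cells, and in all 3 low-AFP cells positive on both sides.

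Genes of the NK side were lower in low-AFP and high-AFP than in control. Of 13 NK cell genes measured, 6 were lower in low-AFP and 9 in high-AFP, where Gzmb alone was higher. Over all genes measured, 8.97% and 7.88% were lower. Intervals were apart for 6 and 8 of the lower NK cell genes, and for 5 and 5 without each gene's top cell. The list includes Ly49 genes, among which reads could be shared. Klra8 was at 392 CPM for control (284 to 528), 69.2 for low-AFP (43.9 to 104), 65.1 for high-AFP (43.3 to 94.1), and 126 for HCC (106 to 147). Klra4 followed with 374, 87.3, 46.5 and 117 CPM. For both genes the control interval was above the other 3, and the UMIs came from 8, 5, 7 and 30 cells for Klra8. Eomes was at 219, 24.1, 11.6 and 64.4 CPM, although it also helped to define the sides. Gzma was at 2690, 1354, 991 and 2191 CPM and Prf1 at 392, 166, 123 and 278 CPM.

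The NK side was 34.8, 17.5, 15.8 and 30.5% of split members, and its part in these differences was not tested. Klra8, Klra4 and Eomes were lower in HCC members than in control members. Within the NK side alone, of 8, 7, 9 and 47 cells, Gzma was at 8701, 6544, 6332 and 6521 CPM. Klra8 was there at 1363 CPM in control (39 UMIs among 8 cells) and at 471 to 749 CPM in the other libraries. Fewer cells of a kind and less RNA per cell cannot be told apart in the sums over all members.

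Gzmc ran the other way. It was at 182 CPM for control (111 to 282), 957 for low-AFP (855 to 1068), 1063 for high-AFP (968 to 1165), and 187 for HCC (164 to 214), so low-AFP and high-AFP stood about alike and above both other libraries. Of 20 control UMIs, 19 lay in 1 cell, and Gzmc was found in 2 of 28 control, 16 of 52 low-AFP, 30 of 90 high-AFP and 27 of 210 HCC members. Without its top cell in every library Gzmc was at 9.51, 628, 877 and 138 CPM. Gzmb was at 611, 936, 1261 and 711 CPM, 2.06-fold higher in high-AFP than in control (counting interval 1.60 to 2.70).

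The chemokines Ccl3 and Ccl4, which NK cells release on activation, were lowest in control. Ccl4 was at 502 CPM for control (378 to 653), 1577 for low-AFP (1445 to 1718), 1561 for high-AFP (1445 to 1684), and 1576 for HCC (1505 to 1648). A single low-AFP cell gave 53.8% of that library's Ccl4 UMIs and a single high-AFP cell gave 48.7%. Leaving out each library's top cell gave 388, 744, 813 and 1494 CPM. In gated T cells Ccl4 was at 113, 1409, 1206 and 2023 CPM, so control was lowest there as well.

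Members of the HCC library stood apart by immediate early genes, which switch on within minutes of stimulation and also during tissue digestion. Of 14 measured against control, 7 were 2-fold higher and none was lower, and of 15 measured against high-AFP, 8 were higher and 1 (Egr1) was lower. Over all genes measured, 4.66% and 2.19% were higher. Without each gene's top cell, 9 were higher and 0 lower against control, and 10 higher and 0 lower against high-AFP. Nr4a2, a nuclear receptor of this class, was at 18.2 CPM for control (2.21 to 65.9), 12.04 for low-AFP (3.28 to 30.8), 20.9 for high-AFP (9.57 to 39.7), and 226 for HCC (200 to 255). It was detected in 96 of 210 HCC members and in 2, 3 and 4 members of the other libraries. Junb was at 492, 319, 354 and 1485 CPM, Fos at 54.7, 84.3, 109 and 408 CPM and Dusp1 at 109, 66.2, 60.5 and 381 CPM.

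The same genes were high in other cells of the HCC library. In its gated T cells Nr4a2 was at 557 CPM and Junb at 1478 CPM, against 27.0 and 573 CPM in control T cells. Over all barcodes of the HCC library other than members, Nr4a2 was at 217 CPM and Junb at 1196 CPM, beside 10.8 and 337 CPM in control. Preparation, sampled region and library cannot be told apart for these genes, because the HCC group is 1 library of its own kind of tissue.

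HCC members also differed from high-AFP members in genes of the NK side and of the cell cycle. Of 13 NK cell genes measured, 8 were higher in HCC and none was lower, beside 2.19% of all genes measured that were higher. Among the 8 were Prf1 (278 against 123 CPM) and Klra7 (98.7 against 39.5 CPM). Fosl2, a partner of Jun proteins, was at 162 against 27.9 CPM. Cd28 was at 119 against 6.98 CPM, in 81 of 210 against 3 of 90 members, while HCC T cells had it at 411 CPM and all other HCC barcodes at 117 CPM. Cell cycle genes were lower in HCC for 9 of 14 measured and higher for none, beside 5.46% of all genes measured that were lower.

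Further genes named by their fold between libraries rested on few cells. Cd83 was at 146 CPM in control and at 15.1, 16.3 and 17.6 CPM in the other libraries, but 14 of its 16 control UMIs lay in 1 NK-side cell, and the control level without that cell was 19.7 CPM. Spp1 was at 1482 CPM in high-AFP against 137 in control and 81.2 in HCC, and 497 CPM without its top cell in high-AFP. In the ILC1 side of high-AFP, Spp1 was at 119 CPM, below 236 CPM in the control ILC1 side, where all 15 UMIs lay in 1 cell. Klri2, a lectin-like NK receptor, was highest in control in either side: it was at 310, 69.2, 46.5 and 100 CPM over members at 594, 163, 58.9 and 188 CPM in the NK side and at 268, 54.4, 49.1 and 76.7 CPM in the ILC1 side. Icam1, the adhesion molecule bound by the integrin LFA-1, was at 264, 45.2, 88.4 and 96.2 CPM, with the control interval (177 to 380) above the others. Of its 29 control UMIs, 14 lay in 1 NK-side cell, and without each library's top cell Icam1 was at 148, 38.7, 75.5 and 89.0 CPM.

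**Figure D5:**
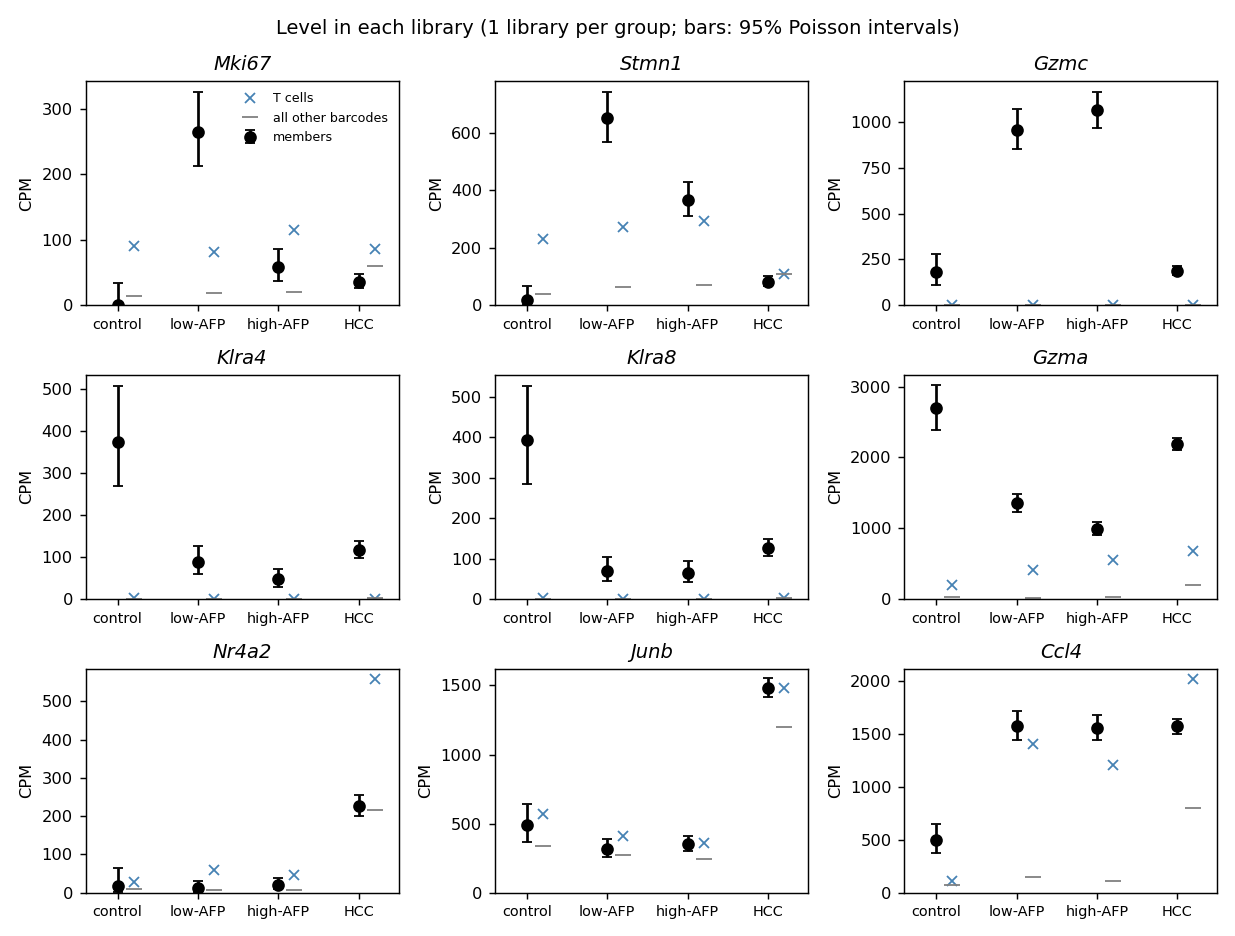
Member CPM of 9 genes in the 4 libraries (black, with exact 95% Poisson intervals for counting error), beside gated T cells (blue crosses) and all other kept barcodes (grey dashes); each group is 1 library. Mki67 and Gzmc were highest in low-AFP or high-AFP, Klra4 and Klra8 in control, and Nr4a2 and Junb in HCC.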

How the data were processed

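For each of 4 libraries, 1 per group, the deposited matrix gives counts of UMIs by gene and by barcode. Per the labels' protocols they were made with the version 2 kit of the 10x 3' chemistry, and per the file headers the matrices were written by Cell Ranger 3.0.2. Cell Ranger, R 3.0, Seurat 3 and mm9 are named in the submitters' processing notes, without roles. Of 31053 feature IDs, 30934 matched the gene name table.

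Barcodes were filtered and gated as stated in the report, and doublets were not removed in the reported values. CPM was computed from counts of nuclear genes, with exact Poisson or Clopper-Pearson intervals (95%) that cover counting error only. Total UMIs per library were 71957655 (control), 80505127 (low-AFP), 97393862 (high-AFP) and 65326793 (HCC). Thinning drew 1000 UMIs per barcode. Both contrasts within libraries were tested with edgeR 4.0.16 (R 4.3.3) on counts summed per library and population, with TMM scaling, filterByExpr and the library as a block, because both sums came from the same library. Adjusted p-values under 0.05 were called. The planned minimum of 10 cells per side was met by the HCC library alone, so a minimum of 5, chosen after the cell numbers were seen, was used and all 4 libraries were fitted. P-values then measure the spread between these 4 libraries, which are of 4 conditions. The code was tested on simulated data.

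Named genes were up to 10 per direction and contrast, by log2 fold among calls with 1 sign in all libraries and a mean of 50 CPM in the higher population. Between libraries they were up to 5 per direction by fold, at 100 CPM, with intervals apart and a member level not below that of other barcodes. Markers, up to 4 genes per list by fold and the 5 genes most like Ncr1 were added; further list genes were chosen for the text after their values were seen. The members and the gene lists were chosen with earlier results of these data known. Alternatives were DESeq2 1.42.0, other scalings and filters, removal of high Scrublet scores (scanpy 1.11.5), and leaving out libraries. Leaving out each gene's top cell was added after seeing the data. Some genes of these lists are not reported here.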

Additional observations from a re-analysis of the deposited data

How the results depend on the processing

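Of the values of single named genes, 604 were on the same side of their threshold or within their spread under the alternatives run, 25 no longer passed, 29 moved and 6 reversed. The headline values were less stable: 85 stayed the same and 61 moved. Between the NK side and the ILC1 side (33 higher, 28 lower), leaving out 1 library gave 15 to 47 higher and 11 to 59 lower. Without the replicate block (no pairing of both sides of a library) 14 and 9 were called. DESeq2 called 21 and 11, Eomes against Itga1 gave 19 higher, Itga2 against Cd200r1 gave 18 and 7, and no filter gave 74 lower. The run of Eomes against Itga1 lacked low-AFP and high-AFP, and that of Itga2 against Cd200r1 lacked control. H2-Ab1 and H2-Eb1 reversed to 0.095 and 0.242 with Eomes against Itga1. For members against T cells, leaving out 1 library gave 257 to 517 higher and 340 to 649 lower, no replicate block gave 205 and 174, DESeq2 355 lower and no filter 1076 lower. Thinned to 1000 UMIs, members were 2.47% of HCC barcodes that had a Ptprc UMI or were members. The NK side was 0% of split members in low-AFP (0 of 5, which allows up to 60%) and 43.8% in HCC (14 of 32). With members gated at full depth and only the sides thinned it was 13.3% (2 of 15) and 35.4% (23 of 65).

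Between libraries, requiring intervals apart gave 72 higher and 92 lower genes for low-AFP against control, 60 and 68 for high-AFP, and 63 and 215 for HCC. The ILC1 side alone gave 334 and 550 for low-AFP, 371 and 503 for high-AFP, and 350 higher for HCC. The NK side alone gave 1001 and 969, 1108 and 1324, and 572 and 1030, and 557 and 937 for HCC against high-AFP. A minimum of 20 CPM gave 632 and 633, 539 and 582, 448 and 703, and 133 and 368 in the same order. TMM scaling gave 169 and 137 lower for low-AFP and high-AFP, 372 and 180 for HCC, and 130 higher for HCC against high-AFP. Without each gene's top cell, 222 and 148 were lower in low-AFP and high-AFP, and 304 were higher and 196 lower in HCC. Log2 folds reversed in the ILC1 side for Klra3 (0.242) and Spp1 (-0.937) in high-AFP and for Klra4 (1.067) in HCC against control, and in the NK side for Spp1 (0.692) in HCC against high-AFP. The Klra4 value rested on 7 UMIs in 1 ILC1-side HCC cell, with none in the control ILC1 side. The causes were not tested. With 28 control members and NK sides of 7 to 47 cells, cell number limits every comparison between libraries.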
